A study of Mus musculus with 12 samples.

Results

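The comparison of PCN with its vehicle in obese mice used 6 of the 12 libraries of the series, those labelled HFD PCN 5, 11 and 27 and HFD Vehicle 23, 50 and 55. They were chosen by their group labels and not by any measured value. The mice were C57BL/6N, an inbred laboratory strain, which were 6 weeks old when a high-fat diet (HFD) began and were kept on it for 18 weeks until obese. Both groups then had one intraperitoneal injection a day for 4 days. HFD PCN mice were given pregnenolone 16alpha-carbonitrile (PCN) at 50 mg/kg, and HFD Vehicle mice were given 30% DMSO in corn oil. The high-fat diet was thus common to both groups, and the comparison asks what PCN changed on top of it. The labels give no genetic alteration. They do not say whether each numbered library is 1 animal or a pool, so p-values reflect no more than the spread among the 6 libraries.

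PCN is a steroid ligand of the rodent receptor PXR (pregnane X receptor), encoded by Nr1i2. This nuclear receptor pairs with the retinoid X receptors (Rxra, Rxrb) and binds repeated hormone response half-sites near its targets. In liver and intestine PXR switches on genes that oxidise, conjugate and export foreign compounds, among them Cyp3a11. The receptor is best known from those 2 organs.

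The series title names gonadal white fat, while the source label names duodenum. The adipocyte gene Fabp4 lay between 2910 and 6212 CPM (counts scaled to a common library total) in the 6 libraries. The epithelial genes Epcam and Vil1 of the intestine reached at most 0.285 and 2.95 CPM. These are the levels of fat tissue, not those of the tissue in the source label. Each library holds RNA of a whole tissue piece, so a change in the number of cells of a type and a change of RNA per cell cannot be told apart in any result given here.

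Across the genome no gene passed the main test with all 6 libraries, and the genes that stood out were few. Slpi, a secreted inhibitor of serine proteases made by epithelia and mesothelium, was higher in every PCN library than in every vehicle library, 5.02-fold on the fitted scale. Adgrd1, an adhesion receptor, was higher by 1.84-fold, in every PCN library and with little spread. Markers of mesothelium, the epithelial layer that covers the fat pad, were higher with PCN than in 2 of the 3 vehicle libraries, and the third, HFD Vehicle 50, often lay among the PCN values. Of 23 tested genes of PXR-driven drug metabolism, 0 were higher at an unadjusted p under 0.05 with all 6 libraries. Without HFD Vehicle 50 it was 1. The receptor itself had almost no counts. Of the listed genes too low to test, Cyp3a11 and Cyp2c29 had a few counts, nearly all of them with PCN. Others leaned either way. Among those with more counts with PCN were Nr1i3, Cyp3a25, Cyp2b23, Cyp1a1, Ces2a and Gsta2. Among those with more with vehicle were Cyp2b10, Akr1b7, Cyp2c55 and Cyp3a13.

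Libraries held 11090117 to 26014587 counts, with HFD Vehicle 50 the shallowest. The quasi-likelihood test of edgeR, with the default filter on low counts and Benjamini-Hochberg adjustment, called 0 of 16563 genes at an adjusted p of 0.05 (0%), and the smallest adjusted p was 0.99986, so every gene named with a 6-library value had an adjusted p of at least that size. At an unadjusted p under 0.05 there were 281 genes (1.7%), of which 177 were higher with PCN (1.07%) and 104 lower (0.628%). PCN and vehicle libraries did not overlap in 1014 genes (6.12%), 568 in the higher direction (3.43%) and 446 in the lower (2.69%). DESeq2 called 1 gene, Slpi, of 30453 (0.00328%), limma-voom called 0 with 244 genes at an unadjusted p under 0.05, and limma-voom with a weight per library called 0 with 1067. In the authors' deposited table, adjusted p-values put 2 genes under 0.05 (0.00657%), Slpi at 1.02e-04 and Adgrd1 at 0.0456. The 95% interval of a log2 fold change reached a median of 0.70 to either side, which is 1.62-fold, and smaller changes were mostly not detectable. That interval is not adjusted for the number of genes, so larger changes could be missed too. Slpi, at 5.02-fold, was not called by edgeR.

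HFD Vehicle 50 stood apart from the other 5 libraries. It was the highest or the lowest of the 6 in 72.9% of tested genes, against 20.3% to 39.0% for the others, and its weight in the weighted fit was 0.152, against 0.991 to 1.998. Mitochondrially encoded RNA took 7.85% of its counts and 2.78% to 3.47% of those of the others. Mitochondrial ribosomal RNAs alone took 7.49% of its counts and 2.01% to 2.54% of those of the others. The excess in HFD Vehicle 50 lay in these ribosomal RNAs. Its summed level of 20 general macrophage genes was 1740 CPM, where HFD Vehicle 23 and 55 had 9644 and 10867 CPM and the PCN libraries 4658 to 9785 CPM. Across genes, which are not independent replicates, log2 CPM of this library correlated with the others at 0.897 to 0.947, and those of the other 5 with each other at 0.966 to 0.991. The results below are therefore given with all 6 libraries and then without it.

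Without HFD Vehicle 50 the number of called genes depended on the tool and on the filter. edgeR with the default filter, the main test, called 0 of 16873 genes, with a smallest adjusted p of 0.356 for Slpi, all others at 0.800 or above, and 898 genes at an unadjusted p under 0.05 (5.32%). It also called 0 with a stricter filter of 1 CPM in 3 libraries. The same test with no filter called 354 of 29853 genes (1.19%), 253 of them higher with PCN (0.847%) and 101 lower (0.338%), and 348 of the 354 were also among the genes that pass the filter. The degrees of freedom that edgeR borrows from all genes were 3.88 with the filter and 73.2 without it. DESeq2 called 44 of 16541 genes (0.266%), 41 higher (0.248%) and 3 lower (0.0181%), all of them also among the 354, and limma-voom called 0, with 825 at an unadjusted p under 0.05. Leaving out a second library moved the DESeq2 count from 44 to between 19 (without HFD Vehicle 55) and 782 (without HFD PCN 5), while edgeR with the filter called 0 each time. With 1 vehicle library left, that library is assumed to vary like the PCN group.

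The receptor and its classical targets come first. The PXR transcript Nr1i2 gave 1, 1 and 0 reads with PCN (libraries 5, 11, 27) and 5, 0 and 1 with vehicle (libraries 23, 50, 55), too few to compare. Its partners were well measured, with Rxra at 121, 178 and 172 CPM with PCN and 129, 297 and 121 CPM with vehicle, and Rxrb at 32.3 to 35.9 and 33.3 to 44.6 CPM. Both groups overlapped for both partners. Cyp3a11, the liver and gut cytochrome P450 that PCN is known to induce, had 13, 9 and 0 counts with PCN and 0, 1 and 0 with vehicle. That is a ratio of 18.9 over the groups, with a 95% counting interval of 3.06 to 782 that leaves out the difference between libraries. HFD PCN 27 had no count, as had 2 of the vehicle libraries. In the HFD mice of the series with no injection named, Cyp3a11 was at 0, 0.109 and 0 CPM (HFD 4, 30 and 38). Cyp2c29, another PXR-responsive P450, had 2, 8 and 1 counts against none in the vehicle libraries, and Cyp2b10, better known as a target of the related receptor CAR, had 6, 7 and 4 against 11, 16 and 1. Further untested members leaned either way. Nr1i3 had 1, 9 and 1 against 0, 0 and 2, Cyp3a25 had 1, 2 and 2 against none, and Cyp2b23 had 0, 2 and 2 against none. Cyp1a1 had 4, 0 and 3 against 1, 0 and 1, Ces2a had 2, 1 and 1 against 0, 1 and 0, and Gsta2 had 3, 0 and 0 against none. Cyp2c55 had 1, 2 and 1 against 0, 4 and 5, Cyp3a13 had 1, 2 and 0 against 2, 5 and 0, and Akr1b7 had 4, 1 and 1 against 5, 3 and 4.

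The base sequence before the start of Cyp3a11 is shown with that of Slpi, the gene with the smallest p, because one holds a known type of PXR response element and the other does not. Both are the 250 bases before the start site in RefSeq (GRCm38.p6), 5′ to 3′, with capitals for a direct repeat of the half-site AGNTCA spaced by 4 bases (DR4, searched as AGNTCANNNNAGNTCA). They lie at chr5:145879855-145880104 and chr2:164356508-164356757, both on the minus strand, and the second lies within the longer span that the files give for Slpi.
Cyp3a11: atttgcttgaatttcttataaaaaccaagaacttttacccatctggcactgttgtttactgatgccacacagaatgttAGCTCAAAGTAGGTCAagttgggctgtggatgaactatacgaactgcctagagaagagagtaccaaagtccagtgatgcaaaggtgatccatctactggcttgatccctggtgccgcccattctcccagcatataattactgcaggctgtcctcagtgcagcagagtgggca
Slpi: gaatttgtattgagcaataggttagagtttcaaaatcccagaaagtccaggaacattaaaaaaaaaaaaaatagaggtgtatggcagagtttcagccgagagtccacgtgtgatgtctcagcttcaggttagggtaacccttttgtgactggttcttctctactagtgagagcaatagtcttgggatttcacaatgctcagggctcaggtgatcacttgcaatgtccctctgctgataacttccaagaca
The DR4 of Cyp3a11 runs from 172 to 157 bases before the start. On either strand this motif was in 0.125% of 32851 promoter windows (250 bases before to 50 after a start), a direct repeat spaced by 3 (DR3, AGNTCANNNAGNTCA) in 0.07%, an everted repeat spaced by 6 (ER6, TGANCTNNNNNNAGNTCA) in 0.0304%, and the single half-site AGNTCA, which each of them contains, in 46.6%. Of the 44 genes that DESeq2 called without HFD Vehicle 50, 30 had a window in the table, and 0 of the 30 held a DR3, DR4 or ER6. Of the 57 genes listed for PXR and xenobiotic metabolism, 54 had a window. Cyp3a11 was the only 1 with a DR4, and 0 held a DR3 or ER6. Because the motifs were so rare in the listed PXR genes too, this search cannot tell PXR targets from other genes. The single half-site was in 14 of the 30, and the 250 bases of Slpi hold none.

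Of the 57 genes listed for PXR and xenobiotic metabolism, 45 were in the table and 23 were tested. The other 22 were too low, none above 1.52 CPM in any library, and included the P450 genes of the Cyp3a, Cyp2b and Cyp2c families. Of the 23, 0 were higher and 1 was lower at an unadjusted p under 0.05 (1.07% and 0.628% of all genes), 2 were higher and 1 lower without overlap (3.43% and 2.69%), 13 had a positive and the rest a negative log2 fold change, and their median of 0.07 compares with -0.0002 over all genes. For 15 of the 23 the 95% interval lay wholly below a 2-fold rise. Without HFD Vehicle 50 the median was 0.22, 19 of the 23 were positive, and 1 member was higher and 1 lower at that level, where 3.73% and 1.59% of all genes were. By non-overlap 3 were then higher and 1 lower, against 11% and 10.1% of all genes.

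**Figure D1:**
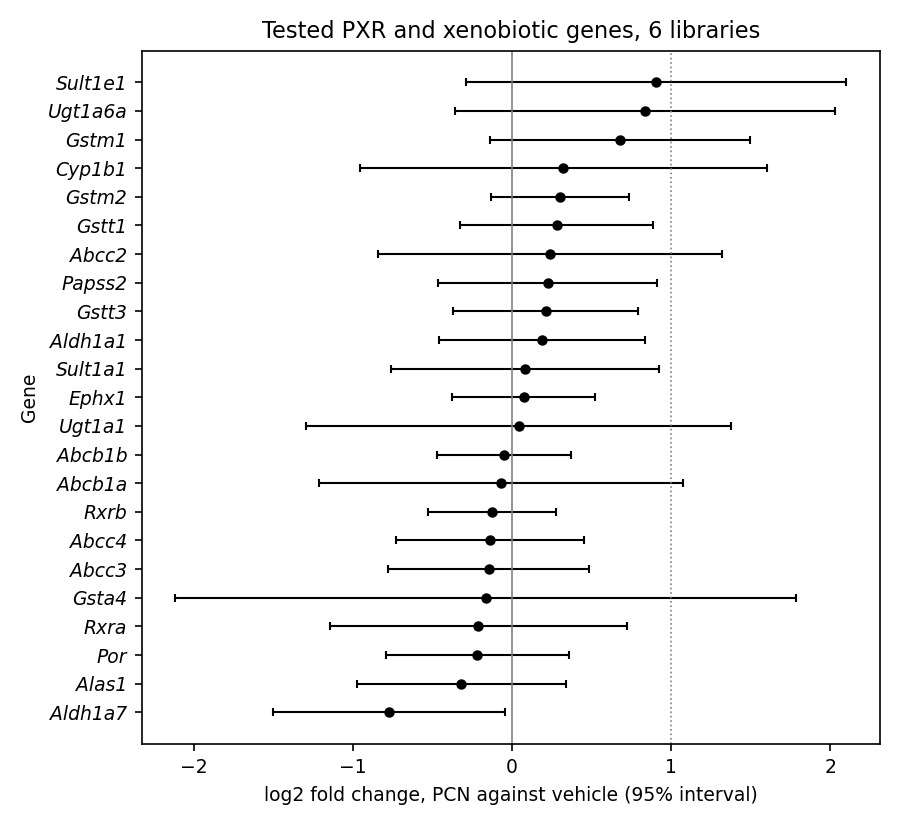
The log2 fold change of PCN against vehicle (x axis) is drawn for the 23 tested PXR and xenobiotic genes (y axis), with points for the estimate over 6 libraries, bars for the 95% interval and a dotted line at a 2-fold rise. The intervals of 22 of the 23 genes include 0, and Aldh1a7 is the exception, on the lower side.

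Among the genes of oxidation and conjugation, Aldh1a7, an aldehyde dehydrogenase, was at 22.1, 33.2 and 15.8 CPM with PCN and at 49.8, 33.6 and 38.3 CPM with vehicle. Its groups did not overlap, by a narrow margin between HFD PCN 11 and HFD Vehicle 50 (log2 fold change -0.78, SE 0.30, edgeR unadjusted p = 0.0401). Sult1e1, the sulfotransferase of oestrogens, was at 5.00, 9.20 and 4.72 CPM against 4.66, 3.99 and 1.44 CPM, without overlap but with nearly touching values (log2 fold change 0.91, SE 0.50). Gstm1, a glutathione transferase, was at 301, 387 and 159 CPM against 160, 166 and 204 CPM, and the groups overlapped. Ugt1a6a, a glucuronosyltransferase that shares 50.3% of its exon bases with another gene and is therefore uncertain, was at 2.40, 2.64 and 2.04 CPM against 1.54, 1.996 and 0.497 CPM.

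Lipid genes linked to PXR in liver gave a mixed picture. Of 25 tested, 1 was higher (Fgf21) and 1 lower (Fasn) at an unadjusted p under 0.05 (1.07% and 0.628% of all genes), with a median log2 fold change of -0.15 (0.11 without HFD Vehicle 50). Fgf21, a hormone of liver and fat, was at 1.69, 2.42 and 1.98 CPM with PCN and 0.972, 1.33 and 1.27 CPM with vehicle, with no overlap (log2 fold change 0.78, SE 0.31). Fasn, the fatty acid synthase, was at 199, 552 and 348 CPM against 743, 1494 and 500.4 CPM, and HFD PCN 11 overlapped with HFD Vehicle 55. Pnpla3, a lipid droplet protein, ranged from 6.84 to 34.3 CPM and from 18.5 to 97.4 CPM, and overlapped too. In cholesterol synthesis 1 of 24 tested genes was higher at that level and 0 were lower (1.07% and 0.628% of all genes, median 0.03): Hmgcs1, which makes the substrate of HMG-CoA reductase and shares 12.1% of its exon bases with another gene, was at 176, 243 and 204 CPM against 150, 113 and 138 CPM (log2 fold change 0.64, SE 0.21, edgeR unadjusted p = 0.0188). Stard4, a sterol carrier, was at 11.5 to 15.2 CPM and 9.93 to 10.7 CPM, without overlap.

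Slpi (ENSMUSG00000017002, chromosome 2, 164354070 to 164389095, GRCm38) was at 9.32, 8.26 and 11.5 CPM in HFD PCN 5, 11 and 27 and at 1.34, 3.04 and 1.55 CPM in HFD Vehicle 23, 50 and 55. All 3 PCN libraries lay above all 3 vehicle libraries, and HFD Vehicle 50 was the highest of the vehicle group. The log2 fold change was 2.33 (SE 0.38, edgeR unadjusted p = 0.000558), and DESeq2 called it with an adjusted p = 1.45e-04. Without HFD Vehicle 50 it was 2.75 (SE 0.27), and DESeq2 called it there too and in each of the 5 fits that left out a further library. In the HFD mice of the same series, for which the labels give no injection, Slpi was at 24.2, 8.87 and 1.14 CPM of each library's own total. Their 3 libraries thus cover the whole span between both injected groups. They come from a separate table, so no test was made across the tables.

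Adgrd1 (ENSMUSG00000044017, chromosome 5, 129096750 to 129204599) was at 82.6, 74.6 and 94.8 CPM with PCN and at 46.4, 46.1 and 44.5 CPM with vehicle. No library overlapped with the other group, and HFD Vehicle 50 lay between the other vehicle libraries. The log2 fold change was 0.88 (SE 0.15, edgeR unadjusted p = 0.000901), with a 95% interval of 0.51 to 1.25, and 0.88 again without that library, where DESeq2 gave an adjusted p = 0.00745. The HFD mice without injection had 56.8, 63.7 and 41.3 CPM, 2 of them between the injected groups and 1 below both.

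Other secreted factors and receptors were among the 15 genes with the smallest p. Tnfrsf11b, which encodes osteoprotegerin, a soluble decoy for the bone cytokine RANKL, was at 9.09, 4.13 and 5.77 CPM with PCN and 1.30, 1.33 and 2.32 CPM with vehicle (log2 fold change 1.94, SE 0.42). Sfrp4, a secreted antagonist of Wnt proteins, was at 9.77, 10.2 and 8.68 CPM against 4.86, 5.8 and 4.80 CPM (log2 fold change 0.89, SE 0.21). In both genes all PCN libraries lay above all vehicle libraries, HFD Vehicle 50 lay at or near the other vehicle values, and DESeq2 called the gene without that library (adjusted p = 0.0323 and 0.0493). Mc2r, the adrenocorticotropin receptor that mouse adipocytes also carry, was at 15.2, 24.5 and 19.5 CPM against 10.5, 9.79 and 7.89 CPM (log2 fold change 1.07, SE 0.24), and DESeq2 did not call it without HFD Vehicle 50 (adjusted p = 0.0700). Aplnr, the apelin receptor of endothelium, was at 26.2, 34.8 and 41.8 CPM against 20.2, 12.3 and 18.4 CPM. Csrp2, a LIM domain protein of smooth muscle and stromal cells, was at 18.9, 11.6 and 17.4 CPM against 8.51, 8.08 and 7.34 CPM. Neither of these last 2 genes overlapped between groups, and DESeq2 called neither.

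Itgb8, an integrin subunit, was at 11.4, 4.35 and 8.51 CPM with PCN and 2.51, 3.23 and 2.10 CPM with vehicle (log2 fold change 1.64, SE 0.41), and DESeq2 called it without HFD Vehicle 50 (adjusted p = 0.0250). Iigp1, an interferon-induced GTPase, was at 21.7, 28.3 and 28.8 CPM against 18.1, 13.6 and 12.6 CPM. Of 22 interferon-stimulated genes tested, Gbp2 alone was higher at an unadjusted p under 0.05 with all libraries (1.07% of all genes), at 47.2, 61.3 and 55.5 CPM against 39.4, 33.5 and 37.0 CPM, and the list's median was 0.08. Rpp25, Capn6 and Gpr141 were also without overlap but low, none above 3.57 CPM in any library. Of the 15 genes with the smallest p, Plekha6 was the only one lower with PCN, at 12.3, 11.5 and 9.32 CPM against 17.4, 17.6 and 21.1 CPM (log2 fold change -0.76, SE 0.19).

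By size, among genes that reached 1 CPM on average and whose groups did not overlap, the 10 with the largest positive log2 fold change included Chil3, a chitinase-like protein of macrophages, at 8.30, 2.42 and 14.3 CPM with PCN and 1.38, 0.0951 and 2.21 CPM with vehicle. Gpm6a, a membrane glycoprotein of neurons and mesothelium, was at 17.7, 9.37 and 5.53 CPM against 1.34, 4.09 and 0.110 CPM, and Cybrd1, a ferric reductase, at 4.47, 1.98 and 2.33 CPM against 0.729, 1.05 and 0.0552 CPM. Each spread widely within both groups. The 10 most negative ones included 2 small nucleolar RNA genes, Snora23 at 3.98, 2.81 and 3.20 CPM against 4.17, 15.9 and 7.73 CPM, and Snord15a at 4.85, 4.24 and 5.48 CPM against 6.85, 22.8 and 7.12 CPM. In both of these HFD Vehicle 50 was far the highest library.

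**Figure D2:**
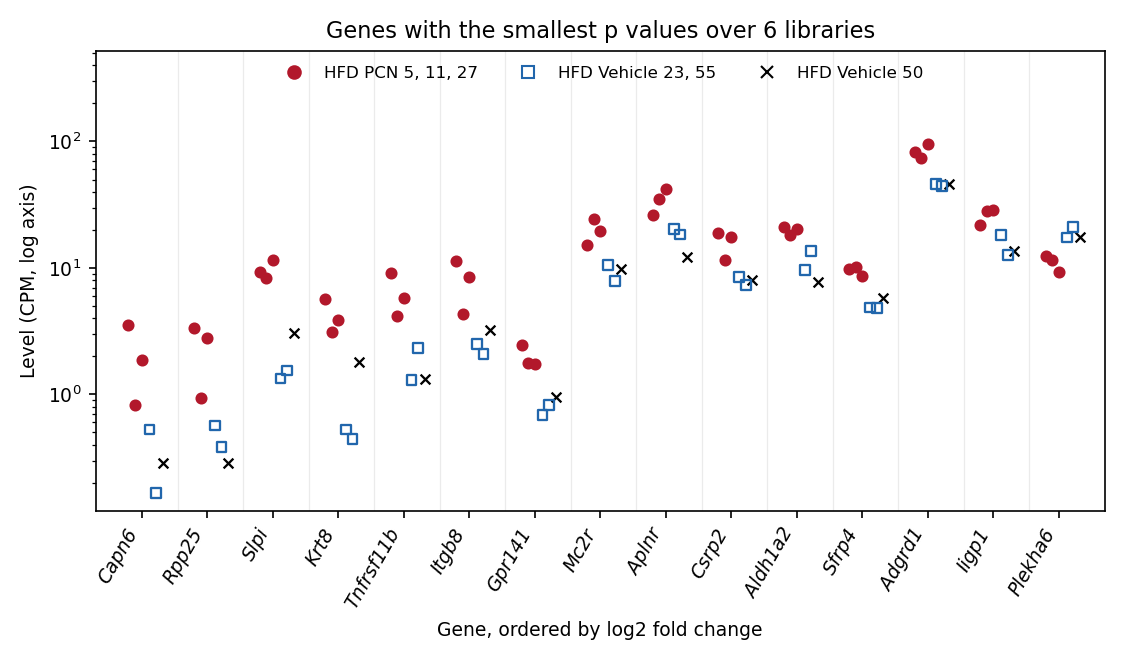
Levels in CPM (log axis) are drawn for the 15 genes with the smallest edgeR p over 6 libraries (x axis, by log2 fold change), 1 point per library. PCN and vehicle libraries do not overlap in any of them, and the cross of HFD Vehicle 50 is the highest vehicle value for Slpi, Krt8, Itgb8, Gpr141 and Sfrp4.

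Mesothelial markers had the largest median of the 35 lists. Of 27 listed, 26 were tested and 25 had a positive log2 fold change. At an unadjusted p under 0.05 there were 10 higher (1.07% of all genes), and 12 were higher without overlap (3.43% of all genes). By these measures 0 were lower (0.628% and 2.69% of all genes). The median log2 fold change was 1.22. Without HFD Vehicle 50 all 26 were positive with a median of 2.26, and 23 were higher at that p (3.73% of all genes). Without overlap 25 were so (11%), and DESeq2 called 11 higher (0.248% of all genes). HFD Vehicle 50 lay above both other vehicle libraries in 21 of the 26 and within or above the PCN range in 14.

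Msln, mesothelin and the defining surface protein of these cells, was at 15.9, 15.6 and 7.46 CPM in HFD PCN 5, 11 and 27, and at 3.77, 15.1 and 3.64 CPM in HFD Vehicle 23, 50 and 55. Upk3b, a uroplakin of mesothelium, was at 20.9, 19.7 and 6.93 CPM against 2.27, 14.3 and 0.938 CPM, and Lrrn4, a leucine-rich repeat protein, at 20.1, 11.2 and 8.74 CPM against 1.99, 5.8 and 0.442 CPM. HFD Vehicle 50 lay within the PCN range for the first 2 of these and below it for Lrrn4. The log2 fold change of Upk3b was 1.49 (SE 0.97) with all libraries and 3.27 (SE 0.60) without HFD Vehicle 50, where DESeq2 gave an adjusted p = 1.64e-06. The 3 genes summed to 57.0, 46.6 and 23.1 CPM with PCN and to 8.02, 35.2 and 5.02 CPM with vehicle, and no library had any of them at 0. The sum of the whole list was 2321 to 3071 CPM with PCN and 1377 to 1768 CPM with vehicle, most of it from the complement gene C3, which other cells make too.

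Of the keratins of simple epithelia, Krt8 and Krt19 were also lowest in HFD Vehicle 23 and 55. Krt8 was at 5.67, 3.14 and 3.84 CPM with PCN and 0.527, 1.81 and 0.442 CPM with vehicle (log2 fold change 2.28, SE 0.59), and Krt19 at 9.54, 4.30 and 4.72 CPM against 0.972, 4.18 and 0.110 CPM (1.90, SE 1.0). Neither overlapped between groups, although HFD Vehicle 50 came close to PCN for Krt19. Bnc1, a zinc finger factor of mesothelium, was at 6.61, 3.03 and 4.54 CPM against 0.486, 5.04 and 0.386 CPM, with HFD Vehicle 50 inside the PCN range. Aldh1a2, which makes retinoic acid, was at 21.1, 18.1 and 20.4 CPM against 9.60, 7.70 and 13.6 CPM, and Dmkn at 4.09, 1.43 and 1.22 CPM against 0.365, 0.0951 and 0.607 CPM. In these 2 members HFD Vehicle 50 was the lowest of the 6 libraries.

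The same markers also varied among HFD mice of the series that had no injection named. Msln was at 5.87, 5.36 and 0.421 CPM there, Upk3b at 7.27, 6.20 and 0.661 CPM and Lrrn4 at 3.58, 2.85 and 0.481 CPM, each in HFD 4, 30 and 38. HFD 38 was the lowest for all 3 and for Slpi. How much mesothelium each fat piece carried is not given in the labels, and its part in these differences was not tested.

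**Figure D3:**
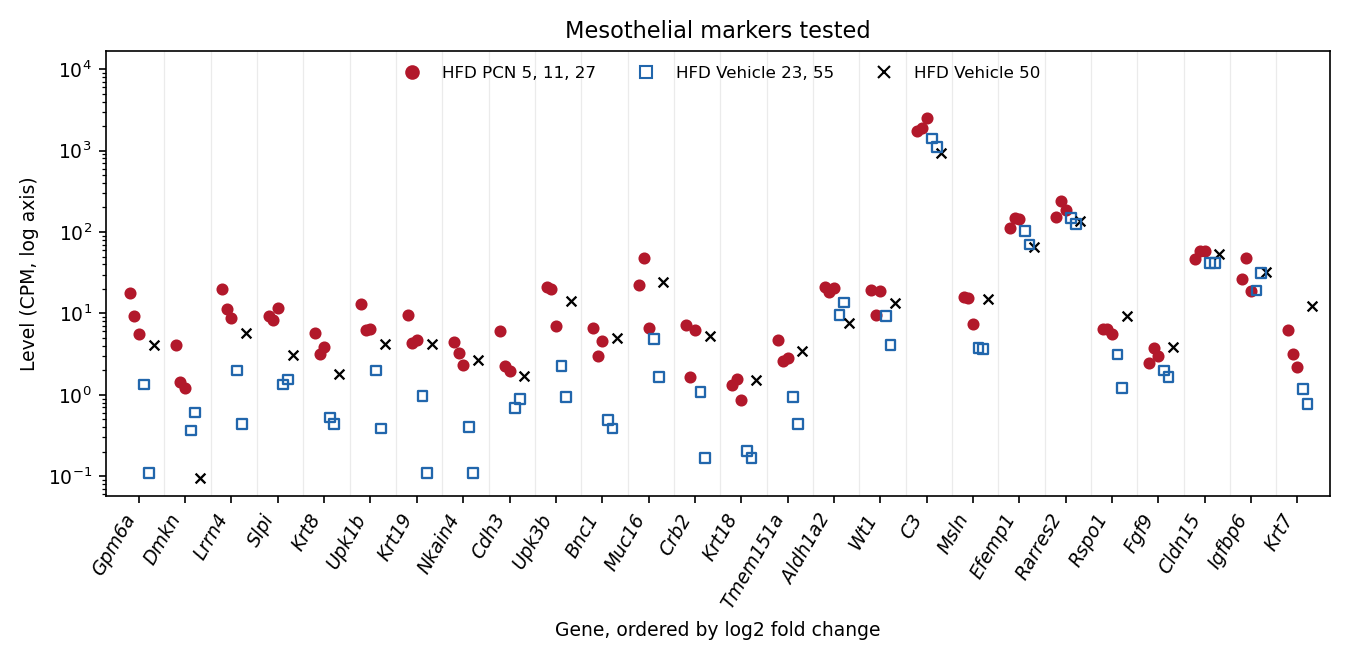
Levels in CPM (log axis) are drawn for the 26 tested mesothelial markers (x axis, by log2 fold change), 1 point per library. The PCN libraries lie above HFD Vehicle 23 and 55 in 25 of the 26 genes, while HFD Vehicle 50 lies within or above the PCN range in 14.

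Of the 41 genes that DESeq2 called higher without HFD Vehicle 50, 11 were on the mesothelial list, 1 (Thbs2) was on the matrix list and 29 were on none. HFD Vehicle 50 itself, which took no part in that fit, lay within the PCN range for 20 of the 41, above it for 6, between the groups for 12 and within the range of HFD Vehicle 23 and 55 for 3. Whichever of the 5 libraries was left out next, 9 genes were called each time: Slpi, Krt8, Krt19, Cxadr, Bnc1, Nkain4, Ildr2, Upk3b and Dmrt2. All 44 kept their direction in each of these fits, but this was set in advance. In each of the 44 genes the PCN libraries did not overlap with HFD Vehicle 23 and 55. Leaving out 1 library could therefore hardly turn the sign.

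Cxadr, a junction protein of epithelia, was at 19.0, 8.54 and 20.2 CPM with PCN and 2.43, 6.46 and 0.718 CPM with vehicle. Ildr2, of which 11% of the exon bases are shared with another gene, was at 43.0, 21.0 and 34.5 CPM against 9.08, 18.2 and 6.07 CPM. Neither overlapped, with HFD Vehicle 50 next to the lowest PCN library in both. Dmrt2, a transcription factor, was at 26.5, 56.9 and 46.1 CPM against 11.6, 54.1 and 11.2 CPM, and Cacna1e, a calcium channel subunit, at 162, 287 and 216 CPM against 80.5, 242 and 85.0 CPM. HFD Vehicle 50 was inside the PCN range for these 2. Thbs2, a thrombospondin of the matrix, was at 461, 481 and 434 CPM against 272, 335 and 208 CPM (DESeq2 adjusted p = 0.00252 without HFD Vehicle 50), and Ednrb, the endothelin B receptor, at 84.7, 102 and 171 CPM against 51.3, 79.8 and 46.6 CPM. Cbr2, a carbonyl reductase, was at 26.3, 26.9 and 65.6 CPM against 15.3, 13.7 and 6.84 CPM. These last 3 genes were above all vehicle libraries, HFD Vehicle 50 included.

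The 3 genes called lower were Fbln7, an extracellular matrix protein, Myh15, a myosin heavy chain, and Kcnj2, a potassium channel. Fbln7 was at 14.3, 12 and 14.1 CPM with PCN and 25.5, 3.14 and 29.3 CPM with vehicle, and Kcnj2 at 27.6, 29.1 and 26.9 CPM against 45.2, 15.4 and 46.6 CPM. In all 3 genes HFD Vehicle 50 lay below every PCN library, so the group difference depends on leaving it out. With all 6 libraries the log2 fold changes were -0.53 (SE 0.69) for Fbln7, -0.36 (SE 0.40) for Kcnj2 and -1.19 (SE 0.96) for Myh15.

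Of 27 adipocyte genes tested, 0 were higher and 0 lower at an unadjusted p under 0.05 (1.07% and 0.628% of all genes), with a median of -0.05. With HFD Vehicle 50 left out, 22 of the 27 had a positive log2 fold change, 4 were higher and 0 lower at that p (3.73% and 1.59% of all genes), and the median was 0.51. Lep, the gene of leptin, was at 1164, 2324 and 1673 CPM with PCN and at 1429, 1312 and 979 CPM with vehicle, and Adipoq, the gene of adiponectin, at 501, 1536 and 782 CPM against 656, 1224 and 371 CPM. HFD PCN 11 was the highest of the 6 for both. Progenitor and fibroblast genes had 2 of 18 tested higher and 0 lower at that p with all libraries (1.07% and 0.628% of all genes, median 0.17), and 4 higher and 1 lower without HFD Vehicle 50 (3.73% and 1.59% of all genes, median 0.18). The 2 with all libraries were Cd34 and F3. Cd34, a surface marker of adipose progenitors and endothelium, was at 91.4, 127 and 99.5 CPM against 80.3, 54.8 and 59.6 CPM, and F3, tissue factor, at 32.4, 40.2 and 55.7 CPM against 23.1, 14.6 and 28.0 CPM. Neither overlapped.

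Macrophage genes depended on HFD Vehicle 50. With all libraries 0 of 20 general markers passed an unadjusted p of 0.05 in either direction (1.7% of all genes), and the median log2 fold change was 0.02. Without HFD Vehicle 50 the median was -0.47, 1 was higher and 0 lower at that p (3.73% and 1.59% of all genes), and 6 were lower and 1 higher without overlap (10.1% and 11% of all genes). Adgre1, the gene of F4/80, was at 785, 304 and 723 CPM with PCN and 928, 71.9 and 926 CPM with vehicle, so HFD Vehicle 50 and HFD PCN 11 were the low libraries. Itgax, the CD11c gene of macrophages in obese fat, was at 245, 232 and 65.8 CPM against 301, 46.6 and 517 CPM. Cd163, a scavenger receptor of resident macrophages, was at 73.9, 102 and 178 CPM against 63.9, 167 and 35.8 CPM, and the groups overlapped in all 3 genes. The median of 21 lipid-associated macrophage genes was -0.13 and -0.58 without that library. The cell cycle list changed sign, from a median of 0.30 over 26 genes to -0.18. In both fits 0 of the 26 were at an unadjusted p under 0.05, where 1.7% and 5.32% of all genes were. Endothelial genes had a median of 0.10 and 0.54 (18 genes), and Lyve1, a marker of lymphatic vessels and of some macrophages, was the 1 member higher at that p with all libraries, at 42.5, 62.6 and 102 CPM against 29.1, 27.9 and 6.57 CPM (1.07% of all genes were higher at that p). All 18 endothelial genes had, without HFD Vehicle 50, a positive log2 fold change, 4 were higher at that p (3.73% of all genes) and 7 were higher without overlap (11% of all genes).

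**Figure D4:**
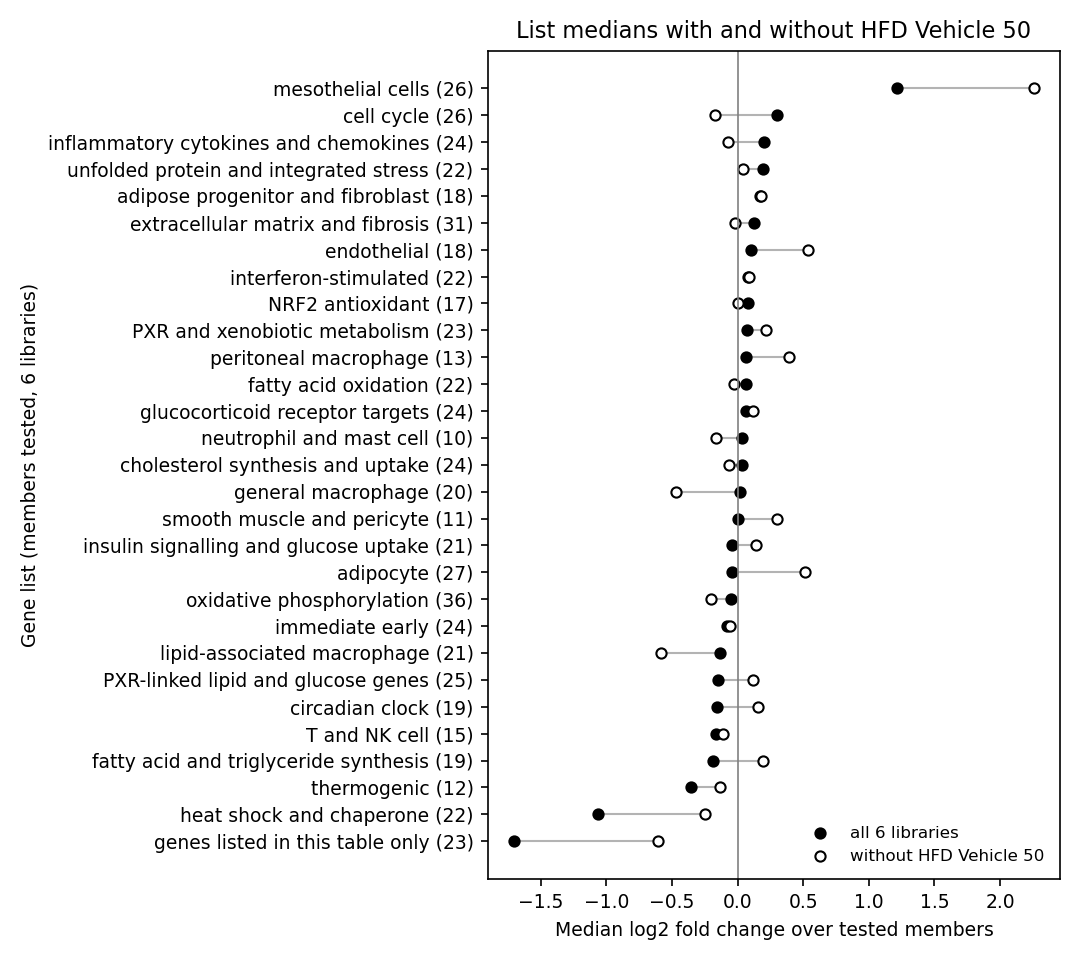
The median log2 fold change over tested members (x axis) is drawn for each list with at least 10 tested members and for the genes listed in this table only (y axis), filled for all 6 libraries and open without HFD Vehicle 50. The mesothelial list is farthest to the right in both fits, at 1.22 and 2.26. Several lists cross 0, among them adipocyte, general macrophage and cell cycle.

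PCN is also known as an antiglucocorticoid. Of 24 tested glucocorticoid receptor targets, 1 was higher and 0 lower at an unadjusted p under 0.05 (1.07% and 0.628% of all genes, median 0.06), and the counts were the same without HFD Vehicle 50 (3.73% and 1.59% of all genes, median 0.12). Fkbp5, a sensitive target of the receptor, was at 215, 247 and 195 CPM with PCN and 318, 353 and 188 CPM with vehicle, and the groups overlapped. Hsd11b1, the enzyme that regenerates active glucocorticoid in fat, was the 1 member that was higher, at 53.2, 71.0 and 56.2 CPM against 41.7, 37.1 and 25.9 CPM (log2 fold change 0.78, SE 0.23, edgeR unadjusted p = 0.0118). Pdk4, a kinase that restrains pyruvate oxidation, was at 290, 303 and 285 CPM against 229, 132 and 248 CPM, without overlap.

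Heat shock and chaperone genes were spread widely among the vehicle libraries. Of 22 tested, 21 had a negative log2 fold change and 5 were lower at an unadjusted p under 0.05 (0.628% of all genes). However, 0 were without overlap (3.43% of all genes were so higher and 2.69% lower). The median was -1.06, and -0.25 without HFD Vehicle 50, where 0 passed that p (3.73% of all genes higher and 1.59% lower). HFD Vehicle 50 was the highest of the 6 libraries in 20 of the 22, HFD Vehicle 55 was highest or second in 17, and HFD Vehicle 23 was below all PCN libraries in 17. For most members the order was thus HFD Vehicle 50, then 55, then the PCN libraries, then HFD Vehicle 23.

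Hsph1, a large cytosolic chaperone, was at 107, 178 and 183 CPM with PCN and 59.6, 3927 and 1122 CPM in HFD Vehicle 23, 50 and 55 (log2 fold change -3.45, SE 1.26). Hspa1a, an inducible HSP70, was at 16.5, 29.4 and 43.1 CPM against 2.67, 1075 and 631 CPM, and Hspa1b at 21.1, 41.4 and 70.3 CPM against 5.06, 1480 and 757 CPM. These 2 genes are near-identical copies, so reads may have been split between them and each value is uncertain. Hspe1, a mitochondrial co-chaperone, was at 49.1, 51.3 and 43.5 CPM against 39.5, 206 and 114 CPM. Arc, an immediate early gene, ranged from 3.55 to 5.03 CPM with PCN and from 5.27 to 13.1 CPM with vehicle, without overlap. The 24 tested members of the immediate early list, which does not hold Arc, had a median of -0.08.

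The heat shock element, 3 inverted repeats of GAA searched as GAANNTTCNNGAA on either strand, is shown for the list members that hold it. It was in the promoter window of 4 of the 17 list members with a window (Hsph1, Chordc1, Hspd1 and Hspe1) and in 0.603% of all windows. The rest of the 17, Hspa1a and Dnajb1 among them, held no exact match. Elements with a changed base, or outside the window of 250 bases before to 50 after a start, were not searched for. The search therefore cannot say that a promoter lacks the element. The part of this element in the levels was not tested. The sites are given 5′ to 3′ on the strand of the gene, with 1 element in capitals (in Chordc1 and Hspd1 further matches overlap it), from RefSeq (GRCm38.p6) at chr5:149636280-149636308, chr9:18292255-18292283 and chr1:55088056-55088084.
Hsph1: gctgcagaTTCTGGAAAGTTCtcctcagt
Chordc1: tgcaaccgGAACGTTCGGGAAaattcctg
Hspd1: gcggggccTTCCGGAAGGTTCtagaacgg
Hspd1 and Hspe1 start back to back, and the same 29 bases serve both windows.

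**Figure D5:**
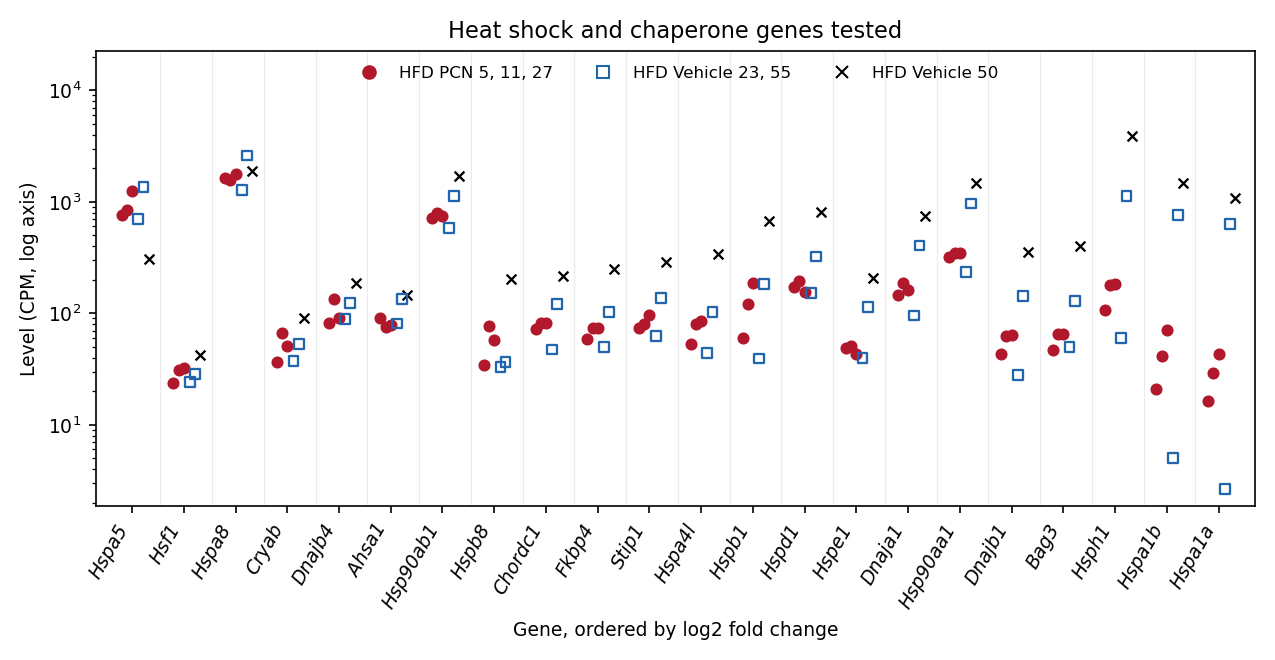
Levels in CPM (log axis) are drawn for the 22 tested heat shock and chaperone genes (x axis, by log2 fold change), 1 point per library. The cross of HFD Vehicle 50 is the highest point in 20 of the 22, and the PCN libraries lie between HFD Vehicle 23 and the other 2 vehicle libraries for most of the genes on the right.

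The deposited table of this comparison lists 30453 genes, of which 28008 are also in the diet table and 2445 are in this one only. Of the 2445, only 23 had enough counts to be tested. At an unadjusted p under 0.05 there were 11 lower and 2 higher (0.628% and 1.07% of all genes). Without overlap were 0 (6.12% of all genes), and the median log2 fold change was -1.70. In the fit without HFD Vehicle 50, 24 were tested, 0 were lower and 4 higher at that p (1.59% and 3.73% of all genes), and the median was -0.61. HFD Vehicle 50 was the highest library in 18 of the 23, and 8 of the 23 were chaperone genes, among them Hsph1, Hspa1a, Hspa1b and Hsp90aa1. Hsp90aa1, the inducible HSP90, was at 322, 350 and 351 CPM with PCN and 234, 1462 and 964 CPM with vehicle. The 2 genes on the higher side with all 6 libraries varied most among the PCN libraries: Lars2, the mitochondrial leucyl-tRNA synthetase, was at 159, 1240 and 38.2 CPM against 47.7, 95.9 and 38.5 CPM, and the predicted gene Gm15564 at 24.4, 161 and 2.97 CPM against 5.67, 6.84 and 3.48 CPM. HFD PCN 11 was the highest library in both, HFD PCN 5 was also above all vehicle libraries, and HFD PCN 27 was below all of them.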

How the data were processed

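RNA sequencing libraries of 3 HFD PCN and 3 HFD Vehicle samples were compared. The authors deposited whole-number read counts per gene, and the same table holds their own log2 fold changes and adjusted p-values. The build GRCm38 (mm10) and the tools DESeq2, HTSeq and HISAT2 are named per the submitters' processing notes. Roles, versions and the use of strand are not given in the sources used here. Genes with over 10% of their exon bases shared with another gene are therefore marked as uncertain.

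Groups came from the sample labels. The deposited counts were tested in R 4.3.3 with edgeR 4.0.16 (TMM scaling, default filter, quasi-likelihood test, Benjamini-Hochberg adjustment at 0.05). CPM are counts scaled to a common library total after TMM, and CPM of HFD mice without injection use the total of their own table. Alternatives were DESeq2 1.42.0, limma-voom (limma 3.58.1), other scalings, filters and thresholds, all 12 libraries in one fit, and leaving out libraries.

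There were 35 gene lists. The named genes were the 15 with the smallest p with and without HFD Vehicle 50, those called by any tool, the 10 largest changes without overlap, up to 4 per list, the 8 highest and the 5 with the smallest p of the genes in this table only, and 10 always named. The text gives a selection of these. Gene lists, naming rule and alternatives were chosen with earlier results of these data known. Depth was 11090117 to 26014587 counts. The interval of a count ratio covers counting error only. Promoter and site sequences came from RefSeq (GRCm38.p6).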

Additional observations from a re-analysis of the deposited data

How the results depend on the processing

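With all 6 libraries edgeR called 0 genes in the main fit and under each of its alternatives: size factors of DESeq2, upper quartile scaling, no filter, 1 CPM in 3 libraries, an adjusted p of 0.1, all 12 libraries, no mitochondrial genes, and each library left out in turn (range 0 to 0, with 111 to 898 genes at an unadjusted p under 0.05). DESeq2 called 1 and the authors' deposited adjusted p-values 2. Without HFD Vehicle 50, edgeR called 0 with the default filter, with 1 CPM in 3 libraries, with size factors of DESeq2, at an adjusted p of 0.1 and with each further library left out (range 0 to 0), limma-voom called 0, and edgeR called 354 with no filter, where its borrowed degrees of freedom were 73.2 in place of 3.88, and DESeq2 called 44 (19 to 782 with a further library left out). Of 68 named genes, 60 kept their direction in every setting run for them. Many of the 68 were named for a small p or for groups without overlap in these same libraries. Where groups do not overlap, leaving out 1 library can hardly turn the sign, so this count does not measure stability. Signs turned for Adgre1 (0.67 with limma-voom, and -0.62 to 0.28 over the fits that left out 1 library), Adipoq (-0.22 to 0.87 over those fits), Cd163 (-0.0072 to 1.24), Itgax (-1.19 to 0.048), Rxra (-0.45 to 0.33, and 0.30 with library weights), Rxrb (-0.21 to 6e-04, and 0.0075 with library weights), and with library weights Hspa1a (0.25) and Hspa1b (0.049). The cause was not tested. No paired analysis was possible because every library has a number of its own and the groups share none. With 3 libraries a group, 2 without HFD Vehicle 50, and 95% intervals reaching a median of 0.70 (0.50 without it) to either side on the log2 scale, small changes were not detectable. Those intervals are not adjusted for the number of genes, so larger changes could be missed too.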
